A study of Homo sapiens with 18 samples.

Results

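The genes described here are NR3C1, the gene of the glucocorticoid receptor (GR), and 8 genes of the chaperone system that holds this receptor: HSP90AA1, HSP90AB1, HSPA8, STIP1, PTGES3, FKBP4, FKBP5 and PPID. They were chosen by name for their part in the receptor's chaperone cycle, with earlier results of these data known, and make up 9 of the 60642 gene symbols counted. All 9 passed the filter on low counts and are among the 15298 genes tested.

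MDA-MB-231 is an established human breast cancer line that lacks estrogen and progesterone receptors, and dexamethasone (Dex) is a synthetic glucocorticoid that activates GR. The cells were transfected for 48 h with 25 nM of siNS, a non-specific siRNA, of siHP1g, which targets CBX3, the gene of heterochromatin protein 1γ (HP1γ), or of siPRMT5, which targets the arginine methyltransferase gene PRMT5. Cells of each kind then received 100 nM Dex, or as much of its vehicle ethanol (Eth), for 8 h. The 6 groups (siNS Eth, siNS Dex, siHP1g Eth, siHP1g Dex, siPRMT5 Eth and siPRMT5 Dex) had 3 biological replicates each, and the RNA of the 18 cultures was sequenced to ask how PRMT5 and HP1γ bear on the expression of GR target genes.

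The reads counted on genes came to 9192643, 9994871 and 9852578 in the siNS Eth libraries and to 11517559, 9486609 and 11299486 in the siNS Dex libraries. The siHP1g libraries held 9282074, 10409833 and 10874249 counts with Eth and 12327634, 9953398 and 10244205 with Dex. The siPRMT5 libraries held 9229449, 8682992 and 10047082 counts with Eth and 10225497, 12472381 and 9014181 with Dex. At this depth the least counted of the 9 genes, PPID, had 294 to 637 counts in a library, and the most counted, HSP90AA1, had 46179 to 78534. Levels are given as CPM, the count of a gene per 1e6 counts of its library, with library sizes scaled by TMM, and are listed in the order of replicates 1 to 3.

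The siRNA targets were measured before all else. PRMT5 stood at 226, 262 and 259 CPM with siNS and Eth and at 244, 247 and 226 CPM with siNS and Dex, and at 8.37, 7.75 and 6.10 CPM with siPRMT5 and Eth and 11.5, 10.6 and 9.39 CPM with siPRMT5 and Dex. CBX3 stood at 274, 234 and 258 CPM with siNS and Eth and at 220.4, 241 and 229 CPM with siNS and Dex, and at 9.23, 9.91 and 10.5 CPM with siHP1g and Eth and 15.8, 13.98 and 11.4 CPM with siHP1g and Dex. Every depleted library was far below every siNS library: the log2 fold change of PRMT5 with siPRMT5 was -5.08 (Eth) and -4.50 (Dex), and that of CBX3 with siHP1g was -4.69 and -4.06. What remained was higher with Dex than with Eth: PRMT5 in siPRMT5 cells by 0.52 (adjusted p = 0.00634) and CBX3 in siHP1g cells by 0.48 (adjusted p = 0.0273), neither past both limits for a Dex response set out below. PRMT5 passed them without siPRMT5 Eth replicate 1 (0.62) or siPRMT5 Dex replicate 3 (0.59), and CBX3 without siHP1g Dex replicate 3 (0.60). The difference from the Dex change in siNS cells was 0.57 for PRMT5 (adjusted p = 0.0297, from 0.012 to 0.102 over the settings tried) and was called. That call was lost without siNS Eth replicate 3 (0.55), siNS Dex replicate 3 (0.55), siPRMT5 Eth replicate 2 (0.61) or 3 (0.45) or siPRMT5 Dex replicate 1 (0.52) or 2 (0.58). For CBX3 the difference was 0.63 and not called (adjusted p = 0.068, from 0.00679 to 0.213 over the settings tried). It was called without siNS Eth replicate 2 (0.69), siHP1g Dex replicate 3 (0.75) or siPRMT5 Dex replicate 2 or 3 (0.63 each), by DESeq2, with no filter on low counts and with only the libraries compared. In these libraries the depletion was less deep with Dex, and the part of this in the comparisons of depleted cells with Dex and Eth was not tested.

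PRMT5 mRNA was also lower in siHP1g cells, by a log2 fold change of -0.25 with Eth (adjusted p = 0.0111) and -0.35 with Dex (adjusted p = 0.00123). Without siNS Eth replicate 2 the change with Eth was -0.22 (adjusted p = 0.0501). CBX3 mRNA in siPRMT5 cells was not called different from siNS cells (log2 fold changes of -0.19 with Eth and 0.16 with Dex, adjusted p = 0.0717 and 0.12). It was called with Eth without siNS Eth replicate 2 (-0.25), siHP1g Dex replicate 1 or 3 (-0.20 each) or siPRMT5 Dex replicate 2 or 3 (-0.195 each), and with Dex without siPRMT5 Dex replicate 3 (0.25). With only the libraries compared in the fit it was also called with Eth (-0.19, adjusted p = 0.0431, from 0.0307 to 0.234 over the settings tried).

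Genes that mark the cell line and other cells were read next. The mesenchymal genes VIM, CD44, AXL and FOSL1 had median levels of 7221, 624, 674 and 389 CPM, while ESR1, PGR and CDH1 had at most 2 counts in a library. ERBB2 (median 30.7 CPM) and EPCAM (11.4 CPM) were low. Among genes that mark other cells, PTPRC and ALB had at most 2 counts in a library, PECAM1 a median of 3.58 CPM and COL1A1 one of 7.25 CPM. Of the 8 marker genes tested, PRMT5 depletion called 2 higher and 3 lower with Eth and 2 higher and 2 lower with Dex, beside 42.1% and 42.4% of all genes called. AXL was lower by a log2 fold change of -2.13 with Eth and with Dex, FOSL1 by -0.85 and -0.66, and CD44 by -0.18 with Eth (adjusted p = 0.0216, from 0.00898 to 0.102 over the settings tried). The call of CD44 was lost without siNS Eth replicate 1 (-0.14), siPRMT5 Eth replicate 1 (-0.17) or siPRMT5 Eth replicate 2 (-0.16), with no filter on low counts and with only the libraries compared. VIM changed by 0.14 and 0.10 and was not called (adjusted p = 0.0683 and 0.194), but with Eth it was called without siPRMT5 Eth replicate 3 (0.19), by DESeq2, with library size in place of TMM and with no filter on low counts.

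The genes higher after PRMT5 depletion were markers of other cells, COL1A1 of fibroblasts (2.10 with Eth and 1.20 with Dex) and PECAM1 of endothelium (1.31 and 0.71). HP1γ depletion called 3 of the 8 higher and 3 lower with Eth (31.8% of all genes were called): COL1A1 (1.20), PECAM1 (1.03), ERBB2 (0.31), AXL (-0.39), VIM (-0.29) and CD44 (-0.20). With Dex it called 1 higher, EPCAM (0.47), and 2 lower, AXL (-0.38) and VIM (-0.28), beside 24% of all genes. With Eth the calls of CD44 and ERBB2 were lost without siNS Eth replicate 1 (-0.17 and 0.26) or siHP1g Eth replicate 2 (-0.17 and 0.26), and that of CD44 also with library size in place of TMM (-0.15, adjusted p = 0.0622). By the limits for a Dex response set out below, PECAM1 was called higher with Dex in siNS cells (1.67) and in siPRMT5 cells (1.06). No other marker was called with any siRNA (2.71% of all genes were called in siNS, 1.67% in siHP1g and 5.44% in siPRMT5 cells). An unadjusted p under 0.05 was found for 8 of the 8 in siNS cells, 5 in siHP1g cells and 5 in siPRMT5 cells. No share of all genes is given for that looser limit. As a scale, PTGES3, with an unadjusted p of 0.0371 in edgeR's test in siNS cells, ranked 2989 by p among the 15298 genes tested. In siHP1g cells its p of 0.0429 ranked 2559. A low unadjusted p was thus common, and the marker counts were not tested against these ranks. The Dex response of COL1A1 was lower in siPRMT5 than in siNS cells by -0.90 (adjusted p = 0.039, from 0.016 to 0.134 over the settings tried), at -0.29 and 0.61, neither called. It was the 1 interaction called among the 8 markers, beside 3.8% of all genes for siPRMT5 and 0.399% for siHP1g. That interaction was not called without siNS Eth replicate 1 (-0.93) or 3 (-0.78), siNS Dex replicate 1 (-0.86) or 3 (-0.84), siHP1g Eth replicate 1 or 3 (-0.89 each), siPRMT5 Eth replicate 2 (-0.89) or 3 (-0.82) or siPRMT5 Dex replicate 1 (-0.85) or 2 (-0.83). The sum of PTPRC, PECAM1, COL1A1 and ALB was 4.75, 4.89 and 4.25 CPM in siNS Eth, 9.10, 8.28 and 9.79 CPM in siNS Dex, 10.4, 10.4 and 9.46 CPM in siHP1g Eth and 8.27, 11.7 and 11.3 CPM in siHP1g Dex. It was 16.1, 17.6 and 17.9 CPM in siPRMT5 Eth and 16.5, 17.1 and 21.3 CPM in siPRMT5 Dex, and COL1A1 was the most abundant of the 4 in each library. The siPRMT5 libraries were above all others in this sum, PTPRC and ALB were at or near 0 throughout, and the part of these genes in the results below was not tested.

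As background, newly made GR is passed from the HSP70 protein HSC70 (HSPA8) to HSP90 (HSP90AA1 and HSP90AB1) through the adaptor HOP (STIP1), and the co-chaperone p23 (PTGES3) then steadies the form that binds hormone. Immunophilins that dock on HSP90 complete the complex: FKBP51 (FKBP5) lowers the affinity for hormone and delays entry into the nucleus, FKBP52 (FKBP4) favours both, and cyclophilin 40 (PPID) docks at the same place. FKBP5 is also a well-known GR target gene, so hormone raises an inhibitor of its own receptor.

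Counts of these genes past a threshold of edgeR's main test are given against the share of all genes tested that passed it. For counts by an unadjusted p, by DESeq2 or in edgeR fits with other settings, no such share is given anywhere in this text. Those counts are not set against all genes, apart from some ranks by p. A Dex response (Dex against Eth in cells with the same siRNA) was called at an adjusted p under 0.01 in edgeR's quasi-likelihood test and a change of at least 1.5-fold, and a depletion (siHP1g or siPRMT5 against siNS under the same treatment) at an adjusted p under 0.05 with no fold limit. In siNS cells 1 of the 9 genes, FKBP5, had a called Dex response, against 2.71% of all genes. FKBP5 was also the 1 gene of the 9 called in siHP1g cells (1.67% of all genes) and in siPRMT5 cells (5.44%). With Dex, HP1γ depletion was called for 4 genes, each lower (24% of all genes were called and 12.3% were lower). PRMT5 depletion with Dex was called for 7 genes, 2 higher and 5 lower (42.4% of all genes, 20.6% higher and 21.9% lower). With Eth, HP1γ depletion was called for 4 genes, each lower (31.8% of all genes, 15.2% lower), and PRMT5 depletion for 6 genes, each lower (42.1% of all genes, 21.6% lower). At an adjusted p under 0.05 with no fold limit, Dex responses were called for 2 genes in siNS cells (9.16% of all genes), 1 in siHP1g cells (5.55%) and 3 in siPRMT5 cells (16%). Of the 3 in siPRMT5 cells, STIP1 and HSPA8 did not pass in every setting tried (adjusted p of up to 0.186 and 0.0617). At an adjusted p under 0.01 and 1.5-fold, HP1γ depletion was called for 2 genes with Dex (5.66% of all genes) and 1 with Eth (7.87%). Under that rule edgeR's test called PRMT5 depletion for 0 of the 9 genes with Dex (14.8% of all genes) and for 0 with Eth (15.3%). Of the 9 genes, 8 with Dex and 7 with Eth had an unadjusted p under 0.05. With Dex, HSP90AB1 (unadjusted p = 0.0461) ranked 7461 by p among the 15298 genes tested, and with Eth PTGES3 (0.0246) ranked 6630. At an adjusted p under 0.05 DESeq2 called 7 and 5. No share of all genes is given beside these further counts. The median log2 fold change of the 9 genes was -0.27 with siPRMT5 and Dex and -0.24 with siPRMT5 and Eth, beside 0.00207 and 0.000477 over all genes. For siHP1g the medians were -0.16 with Dex and -0.11 with Eth, beside 0.00485 and 0.0125 over all genes. The depletions with Dex share the siNS Dex libraries with each other and with the Dex response in siNS cells, and those with Eth share the siNS Eth libraries in the same way.

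Whether depleted cells answered Dex differently from siNS cells was tested as an interaction (adjusted p under 0.05). For siPRMT5 minus siNS it was called for 1 of the 9 genes, FKBP5 (3.8% of all genes). For siHP1g minus siNS edgeR's test called 0 of the 9 genes (0.399% of all genes). An unadjusted p under 0.05 was reached by 3 (FKBP5, PTGES3 and HSP90AA1), and DESeq2 called 2 (FKBP5 and HSP90AA1). The share of 0.399% does not apply to these 2 further counts, for which none is given. Of the 3, PTGES3 had the highest unadjusted p in edgeR's test (0.00518) and ranked 605 by p among the 15298 genes tested.

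**Figure D1:**
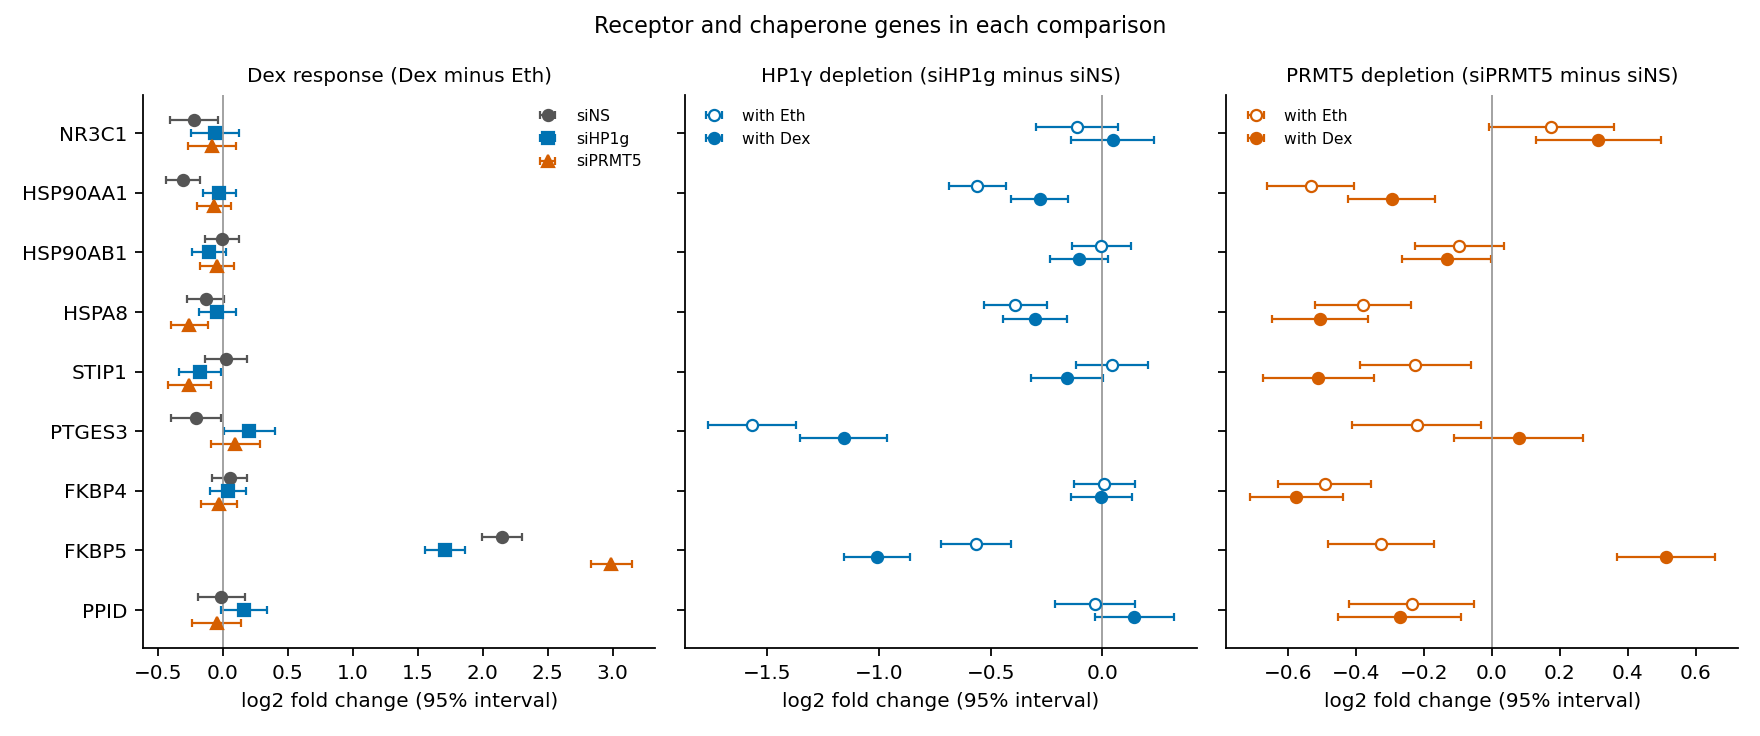
Log2 fold changes of the 9 genes with 95% intervals from edgeR's fit (x axis) for the Dex response with each siRNA (left), HP1γ depletion (middle) and PRMT5 depletion (right), with Eth as open and Dex as filled points in the depletion panels. FKBP5 stands alone at the right of the Dex panel, and PTGES3 at the left of the HP1γ panel (-1.57 with Eth and -1.16 with Dex).

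NR3C1 encodes the receptor itself and lies at chr5:143277931-143435512 (hg38, minus strand), where no other annotated gene overlaps its exons. Its mRNA was measured at 159.6, 141 and 144 CPM in siNS Eth and at 122, 129.8 and 130.3 CPM in siNS Dex. It was at 138, 138 and 135 CPM in siHP1g Eth and 149, 129 and 116 CPM in siHP1g Dex. In siPRMT5 cells it was at 150.04, 166 and 186 CPM with Eth and 145, 176 and 153 CPM with Dex. All 3 siNS Dex libraries were below all 3 siNS Eth libraries and below all 3 siPRMT5 Dex libraries. The siHP1g Eth libraries were below the siNS Eth libraries, while the Eth and Dex libraries overlapped in siHP1g and in siPRMT5 cells.

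From the lowest to the highest group mean, NR3C1 ran from 127 CPM in siNS Dex to 167 CPM in siPRMT5 Eth, a ratio of 1.31. The Dex response in siNS cells was a log2 fold change of -0.22, with a standard error (SE) of 0.0898, and was not called (adjusted p = 0.143). In siHP1g and siPRMT5 cells the Dex changes were -0.06 and -0.08, and the interactions, 0.16 and 0.14, were not called (adjusted p = 0.551 and 0.605). Both small Dex changes depended on 1 library: the change in siHP1g cells was 0.03 without siHP1g Dex replicate 3, and that in siPRMT5 cells was 0.0084 without siPRMT5 Eth replicate 3. The interactions ran from 0.06 to 0.25 for siHP1g and from 0.06 to 0.23 for siPRMT5 with 1 library left out. With Dex, NR3C1 was higher after PRMT5 depletion by a log2 fold change of 0.31 (SE 0.0895, adjusted p = 0.0062), in 3 of 3 libraries. That call rested on siPRMT5 Dex replicate 2, without which the change was 0.23 (adjusted p = 0.054). With Eth the change after PRMT5 depletion was 0.18 and not called (adjusted p = 0.121), though it was 0.25 (adjusted p = 0.0459) without siPRMT5 Eth replicate 1. HP1γ depletion changed NR3C1 by -0.11 with Eth and 0.05 with Dex, neither called (adjusted p = 0.362 and 0.758). The latter was -0.06 without siHP1g Dex replicate 1. The counts are of mRNA in bulk cultures, in which less RNA per cell and fewer cells that make it cannot be told apart, and GR protein was not measured here.

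The genes whose log2 CPM followed NR3C1 most closely over the 18 libraries were ARHGAP5 (Pearson's r = 0.963), ESCO2 (0.937), ZNF654 (0.931), RALGPS2 (0.931) and NEK7 (0.929), among the 11410 genes whose mean reached 5 CPM. The 18 points share their library, its depth and the 6 groups, so these values describe likeness and carry no test. NR3C2, which encodes the mineralocorticoid receptor, ranged from 0.489 to 3.61 CPM (5 to 34 counts), and 3 of the 8 genes of a list of receptors and hormone-converting enzymes (NR3C2, ESR2 and H6PD) could be tested. NR3C2 was lower after PRMT5 depletion with Eth (log2 fold change of -1.09, adjusted p = 0.0103) and with Dex (-1.21, adjusted p = 0.0157). These calls were lost with Eth without siNS Eth replicate 2 (-0.79) or siPRMT5 Eth replicate 1 (-0.76), and with Dex without siNS Dex replicate 2 (-1.10) or siPRMT5 Dex replicate 1 (-1.05). ESR2, at 0.489 to 1.88 CPM, was higher with siPRMT5 and Eth (1.26, adjusted p = 0.00769), a call lost without siPRMT5 Eth replicate 2 (1.04). With Dex its change was 0.23 and not called, nor was the interaction (-1.025, adjusted p = 0.273). H6PD was higher with siHP1g and Eth (0.25, adjusted p = 0.0315), a call lost by DESeq2 (adjusted p = 0.0526), with no filter on low counts (adjusted p = 0.108) and without siNS Eth replicate 1 or 3, siNS Dex replicate 2, siHP1g Eth replicate 2 or 3 or siPRMT5 Eth replicate 1 or 2 (0.20 to 0.23). No gene of the list had a called Dex response in edgeR's or DESeq2's test, and 1 of its 3 tested genes had an unadjusted p under 0.05 in siNS cells, 1 in siHP1g cells and 0 in siPRMT5 cells.

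HSP90AA1 and HSP90AB1 encode the stress-inducible and the constitutive form of cytosolic HSP90, the ATP-driven chaperone that holds GR ready for hormone, and HSPA8 encodes HSC70, the constitutive HSP70 that binds the receptor before HSP90. By total count they ranked 2, 5 and 4 of the 60642 symbols. HSP90AA1 lies at chr14:102080742-102139699 (minus strand), HSP90AB1 at chr6:44246166-44253888 (plus strand) and HSPA8 at chr11:123057489-123063230 (minus strand), all in hg38. WDR20, on the opposite strand, overlaps exons of HSP90AA1, snoRNA genes and an antisense gene overlap exons of HSPA8, and no gene overlaps HSP90AB1.

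The promoters of these genes are shown because many heat shock genes, theirs among them, are known targets of heat shock factor, which binds alternating GAA units. RefSeq promoters (GRCh38.p14, 250 bases before to 50 after a start) were found for 8 of the 9 genes, 19 entries in all, and FKBP4 had none. The letters searched were GAANNTTC followed after 2 bases by GAA, or its reverse complement, TTCNNGAA followed after 2 bases by TTC. They occurred in promoters of 3 of the 8 genes (HSP90AA1, HSP90AB1 and HSPA8) beside 166 of the 27305 symbols of the table (0.608%), or 172 of its 35116 promoters (0.49%). Each such match contains GAANNTTC and TTCNNGAA, which occurred on their own or within it in 6.77% and 7.74% of all promoters. The stretches that hold them run 5′ to 3′ along the gene, with the matched letters in capitals: chr14:102087105-102087147 (minus strand, bases -103 to -61 from the start of the entry), chr6:44247763-44247858 (plus strand, -180 to -85), chr11:123062346-123062374 (minus strand, -238 to -210) and chr11:123062171-123062199 (minus strand, -63 to -35).
HSP90AA1 upstream: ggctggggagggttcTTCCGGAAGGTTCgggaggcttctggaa
HSP90AB1 upstream: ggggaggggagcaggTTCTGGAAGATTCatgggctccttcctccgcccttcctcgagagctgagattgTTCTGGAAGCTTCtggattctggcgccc
HSPA8 distal: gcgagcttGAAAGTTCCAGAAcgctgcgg
HSPA8 proximal: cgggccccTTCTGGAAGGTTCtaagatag
HSP90AB1 and HSPA8 each held 2 matches and HSP90AA1 held 1. They lie in the entries at chr6:44247693-44247992, chr11:123062087-123062386 and chr14:102086995-102087294. Other entries of HSP90AA1 (chr14:102139700-102139999) and HSP90AB1 (chr6:44245944-44246243 and chr6:44246851-44247150) held no match. The HSPA8 windows also overlap an annotated exon of HSPA8, and the others overlap none. A match describes the letters and is no measured binding site, and promoters without it only lack these letters in this window.

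HSP90AA1 stood at 8036, 7528 and 8134 CPM in siNS Eth and at 5876, 6798 and 6516 CPM in siNS Dex. It stood at 5456, 5386 and 5239 CPM in siHP1g Eth and 5464, 5200.3 and 5143 CPM in siHP1g Dex, and at 5261, 5783 and 5337 CPM in siPRMT5 Eth and 4981, 5432 and 5226 CPM in siPRMT5 Dex. The siNS Eth libraries were above all 15 others, the siNS Dex libraries came next, and the 4 depleted groups overlapped each other below both.

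After HP1γ depletion HSP90AA1 changed by a log2 fold change of -0.56 with Eth (SE 0.0622, adjusted p = 1.9e-07) and -0.28 with Dex (SE 0.0621, adjusted p = 0.00159). After PRMT5 depletion it changed by -0.53 with Eth (adjusted p = 1.43e-07) and -0.30 with Dex (adjusted p = 0.000394). The Dex response in siNS cells was -0.30 with an adjusted p of 0.00147, short of the 1.5-fold limit. In siHP1g and siPRMT5 cells the Dex changes were -0.02 and -0.07. The interactions were 0.28 for siHP1g and 0.24 for siPRMT5 and were not called by edgeR (adjusted p = 0.12 and 0.13). DESeq2 called the former (0.28, adjusted p = 0.0357), and over the settings tried its adjusted p ran from 0.0357 to 0.27.

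HSP90AB1 ranged from 2289 to 2721 CPM over the 18 libraries, and the Eth and Dex libraries of each siRNA and the depleted and siNS libraries of each treatment overlapped. Its group means differed by a ratio of 1.1 at most, and edgeR's test called 0 of its 7 Dex responses and depletions. The change with the lowest p was that after PRMT5 depletion with Dex (-0.13, SE 0.0635, unadjusted p = 0.0461, adjusted p = 0.0944). Without siPRMT5 Dex replicate 3 it was -0.18 (adjusted p = 0.0455), and DESeq2 called none of the 7.

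The ratio of HSP90AA1 to HSP90AB1 counts within a library needs no scaling between libraries. It was 3.23, 2.77 and 3.05 in siNS Eth, 2.01, 2.14 and 2.005 in siHP1g Eth and 2.21, 2.20 and 2.26 in siPRMT5 Eth. With Dex it was 2.325, 2.52 and 2.48 in siNS, 2.37, 2.12 and 2.02 in siHP1g and 2.18, 2.34 and 2.05 in siPRMT5. With Eth all depleted libraries were below all siNS libraries, and with Dex the depleted and siNS libraries overlapped. The log2 difference was -0.555 for siHP1g and -0.44 for siPRMT5 with Eth (exact two-sided permutation p = 0.1 each, the lowest that 3 against 3 can give). With Dex it was -0.17 and -0.16 (exact permutation p = 0.2 each).

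HSPA8 stood at 4148, 4472 and 4412 CPM in siNS Eth and 3794, 4374 and 3743 CPM in siNS Dex. It stood at 3338, 3283 and 3332 CPM in siHP1g Eth and 2903, 3510.5 and 3252 CPM in siHP1g Dex. In siPRMT5 cells it stood at 3324, 3506 and 3187 CPM with Eth and at 2739, 2851 and 2798 CPM with Dex. All depleted libraries were below the siNS libraries of the same treatment, and the siPRMT5 Dex libraries were the lowest of all. The log2 fold changes were -0.39 (Eth, adjusted p = 0.000104) and -0.30 (Dex, adjusted p = 0.00207) for HP1γ depletion and -0.38 (Eth, adjusted p = 7.58e-05) and -0.51 (Dex, adjusted p = 1.66e-06) for PRMT5 depletion. Dex changed HSPA8 by -0.13 in siNS cells (adjusted p = 0.274), by -0.04 in siHP1g cells (adjusted p = 0.821) and by -0.26 in siPRMT5 cells (adjusted p = 0.0101, short of both limits), and the interaction between siPRMT5 and siNS cells, -0.13, was not called (adjusted p = 0.521).

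Together HSP90AA1, HSP90AB1 and HSPA8 took 1.46% of all counts in siNS Eth, 1.27% in siNS Dex, 1.15% in siHP1g Eth, 1.13% in siHP1g Dex, 1.12% in siPRMT5 Eth and 1.02% in siPRMT5 Dex (group means, SD between 0.0142 and 0.0722). The depleted libraries, at 1.17% or less, were all below the siNS libraries, at 1.2% or more.

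**Figure D2:**
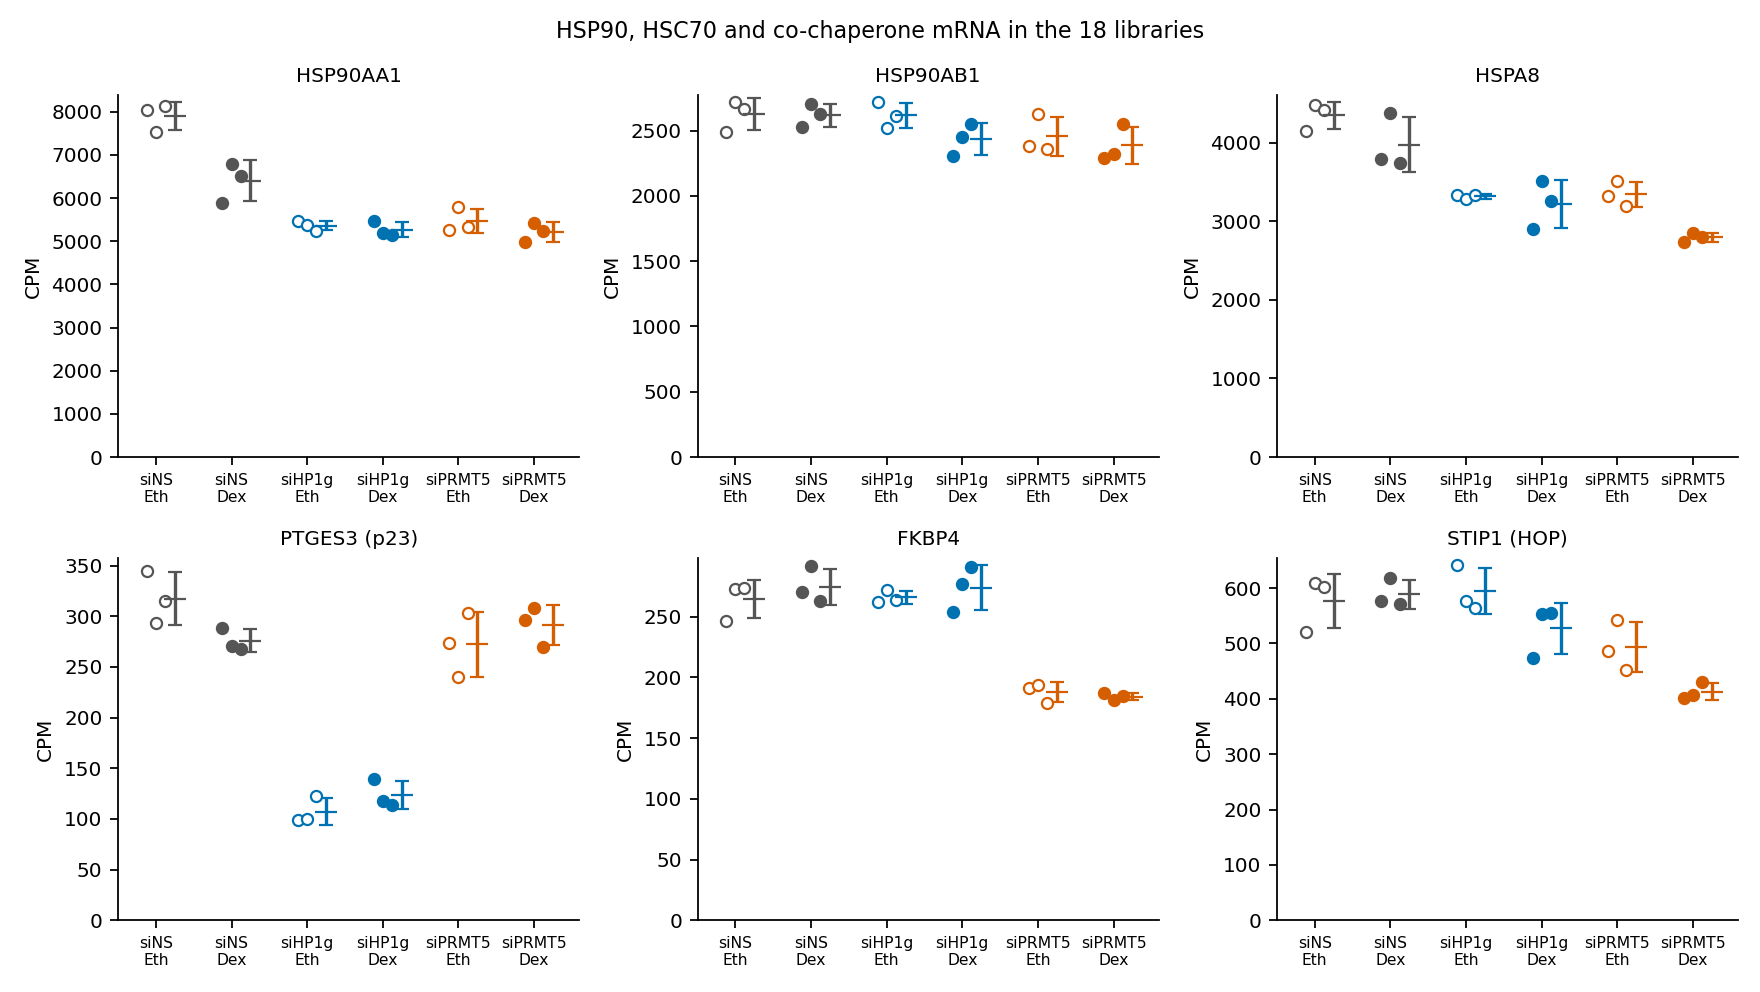
CPM of 6 chaperone and co-chaperone genes in each of the 18 libraries (y axis from 0, points, Eth open and Dex filled) by group (x axis), with the group mean and SD (n = 3) beside them. HSP90AA1 is highest in siNS Eth, PTGES3 is low in both siHP1g groups and FKBP4 is low in both siPRMT5 groups.

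STIP1 encodes HOP, which bridges HSC70 and HSP90, and lies at chr11:64185272-64204543 (plus strand). It stood at 519.8, 608 and 602 CPM in siNS Eth and at 576, 619 and 571 CPM in siNS Dex. It stood at 486, 542 and 453 CPM in siPRMT5 Eth and 402, 406 and 431 CPM in siPRMT5 Dex. The siPRMT5 Dex libraries were below every other library of this gene, while with Eth the siPRMT5 and siNS libraries overlapped. PRMT5 depletion changed STIP1 by a log2 fold change of -0.51 with Dex (SE 0.079, adjusted p = 9.61e-06) and -0.23 with Eth (adjusted p = 0.0233). The call with Eth was lost without siNS Eth replicate 2 (-0.19, adjusted p = 0.098), siNS Eth replicate 3 (-0.20, 0.0937), siPRMT5 Eth replicate 1 (-0.22, 0.0625) or siPRMT5 Eth replicate 3 (-0.17, 0.131). The Dex response was -0.26 in siPRMT5 cells (adjusted p = 0.0259), -0.17 in siHP1g cells (unadjusted p = 0.0373, adjusted p = 0.239) and 0.03 in siNS cells. The Dex libraries were below the Eth libraries in siPRMT5 and in siHP1g cells and overlapped them in siNS cells. The interactions, -0.29 for siPRMT5 and -0.20 for siHP1g, were not called (adjusted p = 0.154 and 0.359). In siHP1g cells STIP1 ranged from 474 to 642 CPM. The siHP1g Dex libraries were below the siNS Dex libraries, by a change that was not called (-0.16, adjusted p = 0.147), and with Eth the libraries overlapped. Replicate 1 of siHP1g Dex was at 474 CPM, beside 553 and 554 CPM in replicates 2 and 3. With 1 library left out that change ran from -0.198 to -0.086, and the Dex response in siHP1g cells from -0.208 to -0.095.

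PTGES3 encodes p23, which binds HSP90 in its closed, ATP-bound state, and lies at chr12:56663341-56688408 (minus strand). It stood at 345, 293 and 315 CPM in siNS Eth and 289, 270.4 and 268 CPM in siNS Dex. With siHP1g it stood at 99.0, 99.6 and 122 CPM with Eth and 139, 118 and 113 CPM with Dex. With siPRMT5 it stood at 273, 240.0 and 303 CPM with Eth and 296, 308 and 269.7 CPM with Dex. The 6 siHP1g libraries were below the other 12, and the siPRMT5 and siNS libraries overlapped in both treatments.

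HP1γ depletion changed PTGES3 by a log2 fold change of -1.57 with Eth (95% interval -1.77 to -1.37, adjusted p = 7.36e-12) and -1.16 with Dex (-1.35 to -0.96, adjusted p = 1.33e-09), which left 33.7% and 44.8% of the siNS level. Of the 2329 genes called lower with Eth, 45 had a larger fall, and of the 1882 with Dex, 111 had. The Dex response was -0.20 in siNS cells, 0.21 in siHP1g cells and 0.10 in siPRMT5 cells, none called (adjusted p = 0.19, 0.257 and 0.564). The interaction for siHP1g was 0.41 (SE 0.133, adjusted p = 0.13), and its adjusted p ran from 0.0399, with no filter on low counts, to 0.311 over the settings tried. That for siPRMT5 had the same direction, at 0.30 (SE 0.131, unadjusted p = 0.0301, adjusted p = 0.205). PRMT5 depletion changed PTGES3 by -0.22 with Eth (adjusted p = 0.0567) and 0.08 with Dex (adjusted p = 0.526). The former was called without siNS Eth replicate 2 (-0.28), siPRMT5 Eth replicate 3 (-0.31), siHP1g Eth replicate 3, siHP1g Dex replicate 1 or 3, or siPRMT5 Dex replicate 2 or 3 (-0.23 in each of these 5 cases). It was also called with no filter on low counts (-0.21, adjusted p = 0.0318), with a block for the replicate number (-0.22, adjusted p = 0.0498) and with only the libraries compared (-0.23, adjusted p = 0.0367), and its adjusted p ran from 0.0164 to 0.286 over all settings.

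Reads that match a gene and its processed pseudogenes can be counted at either, and the counts at 5 PTGES3 pseudogenes came to 25 to 39.8% of the count at PTGES3 in a library. The largest, PTGES3P1, was also lower with siHP1g (-1.47 with Eth and -1.27 with Dex). After PRMT5 depletion with Eth PTGES3P1 changed by -0.04, where PTGES3 changed by -0.22. Its interaction for siHP1g was 0.20, beside 0.41 for PTGES3. Pseudogene counts came to 21.7 to 25% for STIP1, 19 to 21.2% for HSP90AB1, 17.6 to 19.7% for HSP90AA1, 4.5 to 7.16% for FKBP4 and 3.77 to 4.5% for HSPA8. No pseudogene of NR3C1, FKBP5 or PPID was found in the files.

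FKBP4 encodes FKBP52, the immunophilin that favours hormone binding and nuclear entry of GR, and lies at chr12:2794970-2805423 (plus strand), where antisense genes, ITFG2-AS1 among them, overlap its exons. It stood at 247, 273 and 273 CPM in siNS Eth and 270.3, 291 and 263 CPM in siNS Dex. It stood at 191, 194 and 179 CPM in siPRMT5 Eth and 187, 181 and 184 CPM in siPRMT5 Dex. All 6 siPRMT5 libraries were below all 12 others, and the siHP1g libraries, at 254 to 291 CPM, overlapped those of siNS. PRMT5 depletion changed FKBP4 by a log2 fold change of -0.49 with Eth (SE 0.0667, adjusted p = 1.42e-06) and -0.58 with Dex (SE 0.0664, adjusted p = 1.17e-07). Dex changed it by 0.06 in siNS cells (adjusted p = 0.679).

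PPID encodes cyclophilin 40 and lies at chr4:158709127-158723396 (minus strand), where exons of ETFDH on the other strand overlap it. It was at 43.6, 45.4 and 43.6 CPM in siNS Eth and 43.4, 46.0 and 42.4 CPM in siNS Dex. It was at 42.0, 34.99 and 35.6 CPM in siPRMT5 Eth and at 37.2, 38.2 and 33.3 CPM in siPRMT5 Dex. In siHP1g cells it was at 39.8, 43.0 and 46.7 CPM with Eth and at 50.1, 50.2 and 44.8 CPM with Dex. The siHP1g Dex group had the highest mean, 48.4 CPM. HP1γ depletion changed PPID by -0.03 with Eth and 0.14 with Dex, neither called by edgeR's test (adjusted p = 0.818 and 0.247). The siPRMT5 libraries were below the siNS libraries in both treatments, by log2 fold changes of -0.24 with Eth (adjusted p = 0.0355) and -0.27 with Dex (adjusted p = 0.0148). The call with Dex was lost without siNS Dex replicate 2 (-0.23, adjusted p = 0.0634) or siPRMT5 Dex replicate 3 (-0.21, adjusted p = 0.089). That with Eth was lost without siNS Eth replicate 1 (-0.25), 2 (-0.22) or 3 (-0.25) or siPRMT5 Eth replicate 2 (-0.19) or 3 (-0.20), and it was not called by DESeq2 (-0.23, adjusted p = 0.0535), with library size in place of TMM (-0.22, adjusted p = 0.0599) or with no filter on low counts (-0.23, adjusted p = 0.111). Over all settings tried its adjusted p ran from 0.0091 to 0.141.

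FKBP5 encodes FKBP51, the immunophilin that lowers the affinity of GR for hormone, and lies at chr6:35573585-35728583 (minus strand), with no other annotated gene in its exons. It is shown with a stretch of its sequence because GR binds a palindrome, searched as AGAACA, 3 bases of any kind and TGTTCT, which reads the same on both strands, and because this gene alone of the 9 had a called Dex response. These letters occurred in 1 of the 35116 RefSeq promoters (0.00285%) and in 0 promoter entries of the 9 genes. Within the gene spans they occurred 1 time in FKBP5 (154999 bases) and 0 times in the other 8, and 552 of 18628 genome windows of the length of FKBP5 held at least 1 (2.96%). The window printed, 55 bases with the match in its middle, lies at chr6:35602062-35602116 (hg38, minus strand) and overlaps no exon. The middle of the match is 126494 bases from the start of the gene. The window is printed 5′ to 3′ along the gene with the matched letters in capitals.
FKBP5 intron: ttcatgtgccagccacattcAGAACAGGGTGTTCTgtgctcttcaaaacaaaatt
No binding of GR was measured in these libraries, and the letters alone do not mark a bound site.

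FKBP5 stood at 111, 115 and 113 CPM in siNS Eth and at 502, 501 and 505 CPM in siNS Dex. It stood at 80.8, 68.6 and 79.6 CPM in siHP1g Eth and 266, 248 and 236 CPM in siHP1g Dex. In siPRMT5 cells it stood at 84.0, 89.1 and 97.4 CPM with Eth and 681, 696 and 776 CPM with Dex. Each group was apart from its neighbours in the order of means, from siHP1g Eth, siPRMT5 Eth and siNS Eth to siHP1g Dex, siNS Dex and siPRMT5 Dex. The group means were 76.4 ± 6.71, 90.2 ± 6.74, 113 ± 1.82, 249.8 ± 14.997, 503 ± 1.89 and 717 ± 51.3 CPM in this order (SD, n = 3), and the highest was 9.39 times the lowest.

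**Figure D3:**
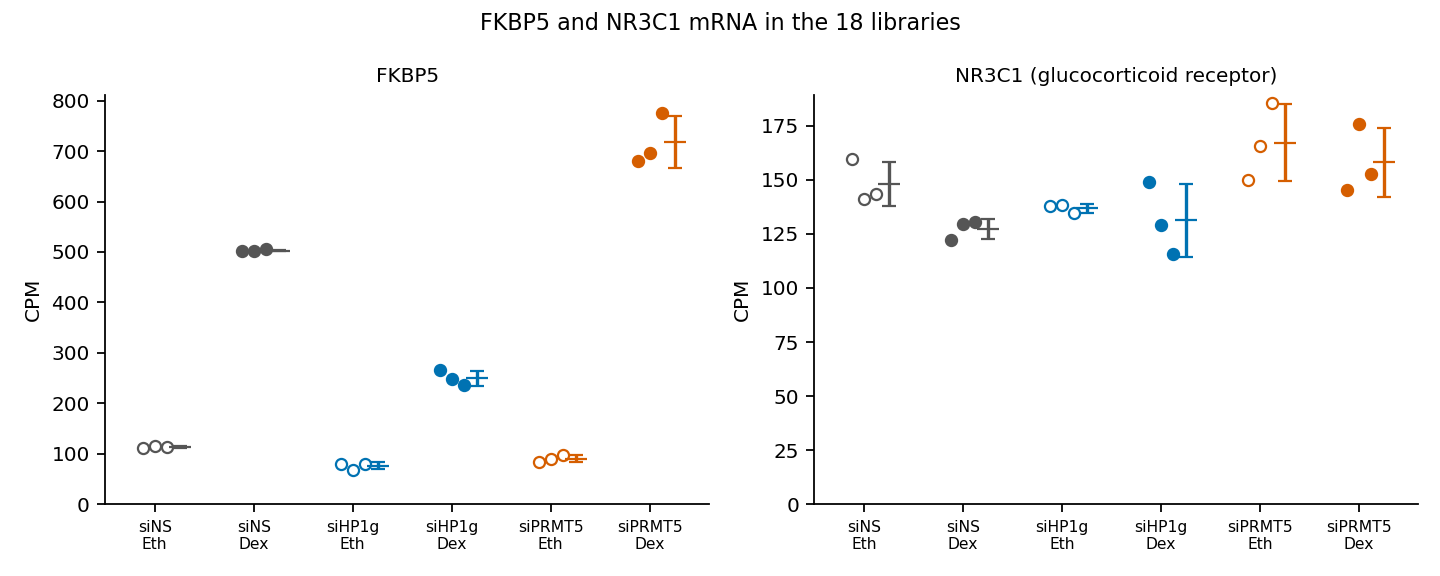
CPM of FKBP5 (left) and NR3C1 (right) in each of the 18 libraries (y axis from 0, points, Eth open and Dex filled) by group (x axis), with the group mean and SD (n = 3) beside them. The 6 groups of FKBP5 do not overlap, with siPRMT5 Eth below siNS Eth and siPRMT5 Dex above siNS Dex, while NR3C1 stays between 116 and 186 CPM.

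Dex raised FKBP5 by a log2 fold change of 2.15 in siNS cells (SE 0.0749, adjusted p = 2.79e-17), 1.71 in siHP1g cells (SE 0.0756, adjusted p = 6.48e-15) and 2.99 in siPRMT5 cells (SE 0.0774, adjusted p = 5.87e-20), in 3 of 3 libraries each. By p it ranked 6, 8 and 2 of the 15298 genes tested. In CPM the gain was 389.7 with siNS, 173 with siHP1g and 627 with siPRMT5, ranks 10, 14 and 4 among the genes tested. The response was larger in siPRMT5 than in siNS cells by 0.84 (SE 0.103, adjusted p = 2.31e-05), and 69 of the 241 genes called in that direction had a larger difference.

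The siPRMT5 cells stood below siNS cells before Dex and above them after it: PRMT5 depletion changed FKBP5 by -0.33 with Eth (SE 0.076, adjusted p = 0.0011) and by 0.51 with Dex (SE 0.0702, adjusted p = 1.75e-06). HP1γ depletion lowered it in both, by a log2 fold change of -0.57 with Eth (adjusted p = 3.13e-06) and -1.01 with Dex (adjusted p = 1.18e-10). The response in siHP1g cells differed from that in siNS cells by -0.44 (SE 0.104), which edgeR's test did not call (adjusted p = 0.0588). That difference was called by DESeq2 (adjusted p = 0.00546), with no filter on low counts (0.00886), with the replicate number as a block (0.0498) and without siNS Eth replicate 2 (-0.45, 0.0489), siHP1g Eth replicate 2 (-0.51, 0.0341) or siHP1g Dex replicate 1 (-0.48, 0.0384). Its adjusted p over all settings ran from 0.00546 to 0.206.

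FKBP51 and FKBP52 act on GR in opposite ways, so the ratio of FKBP5 to FKBP4 counts was formed within each library. It was 0.451, 0.420 and 0.415 in siNS Eth and 1.86, 1.72 and 1.92 in siNS Dex. It was 0.308, 0.252 and 0.302 in siHP1g Eth and 1.05, 0.896 and 0.811 in siHP1g Dex. It was 0.439, 0.459 and 0.545 in siPRMT5 Eth and 3.64, 3.84 and 4.21 in siPRMT5 Dex. With Dex the ratio was highest in the 3 siPRMT5 libraries, where FKBP5 was high and FKBP4 low, and lowest in the 3 siHP1g libraries, and no group with Dex overlapped another. The log2 difference between Dex and Eth was 2.10 with siNS, 1.67 with siHP1g and 3.02 with siPRMT5 (exact two-sided permutation p = 0.1 each, the lowest possible with 3 against 3). These are ratios of counts and not of molecules, since FKBP5 has 10.6 kb and FKBP4 5.16 kb of annotated exon.

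**Figure D4:**
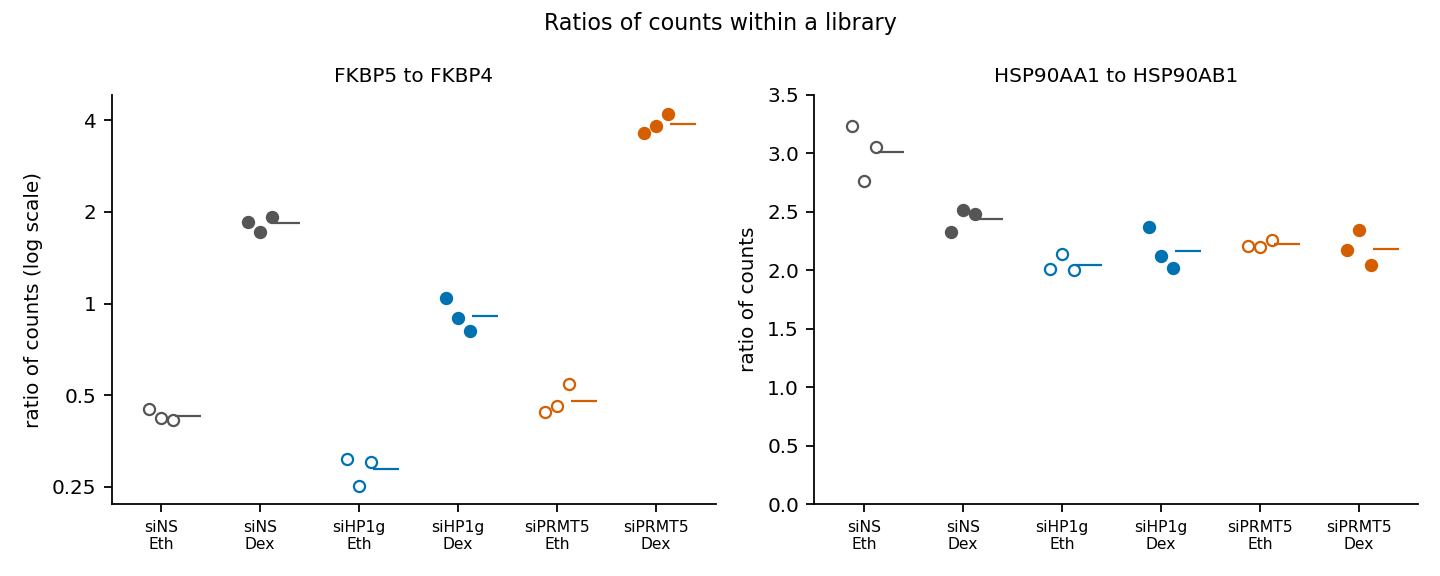
Ratio of FKBP5 to FKBP4 counts (left, y axis on a log scale) and of HSP90AA1 to HSP90AB1 counts (right, y axis from 0) in each of the 18 libraries by group, with Eth open, Dex filled and a line for the mean of the logs. The left ratio reaches 4.21 in siPRMT5 Dex, and the right ratio is highest in siNS Eth, at 2.77 to 3.23.

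Per kilobase of annotated exon, levels in siNS Eth were 1549.8 CPM for HSP90AA1, 896 for HSPA8, 881 for HSP90AB1, 125 for STIP1, 93.4 for PTGES3, 51.2 for FKBP4, 17.6 for PPID, 16.2 for NR3C1 and 10.6 for FKBP5. On this scale the chaperones exceeded the receptor and the immunophilins. Whether the libraries cover whole transcripts or mainly their ends is not given, and an order per kilobase presupposes the former. The lengths join the exons of all annotated transcripts of a gene. Counts at pseudogenes, up to 39.8% of the count at PTGES3, are not included.

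The genes most like FKBP5 over the 18 libraries were TXNIP (Pearson's r = 0.981), KLF9 (0.98), MT1E (0.978), DNER (0.975) and CAVIN2 (0.974), by the measure used for NR3C1. FKBP5 was set beside a list of 11 other glucocorticoid target genes, 10 of which could be tested. Of these, 8 were called higher with Dex in siNS cells, 7 in siHP1g cells and 9 in siPRMT5 cells, and CRISPLD2 was called lower in siPRMT5 cells (-0.93), beside 2.71%, 1.67% and 5.44% of all genes called. That call was lost without siPRMT5 Eth replicate 2 (-0.87), siPRMT5 Dex replicate 1 (-0.81) or siPRMT5 Dex replicate 3 (-0.79), and its interaction with siNS cells, where it changed by -0.67, was not called (-0.26, adjusted p = 0.74). CRISPLD2 was low, at 1.31 to 6.69 CPM (12 to 61 counts in a library). The list's median log2 fold change was 1.7 in siNS, 1.55 in siHP1g and 2.31 in siPRMT5 cells, beside the FKBP5 values of 2.15, 1.71 and 2.99.

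The Dex response was also called larger in siPRMT5 than in siNS cells for 2 of the 10 listed targets, DUSP1 (interaction 1.22, adjusted p = 7.96e-08) and ERRFI1 (0.68, adjusted p = 0.000144), beside 3.8% of all genes. For siHP1g minus siNS, 4 of the 10 were called, each lower, beside 0.399% of all genes: TSC22D3 (-1.0025, adjusted p = 0.00104), PER1 (-0.75, adjusted p = 0.0195), KLF9 (-0.69, adjusted p = 0.0229) and SGK1 (-0.55, adjusted p = 0.0209), the last named after its value was seen. TSC22D3 was called without any 1 of the 18 libraries. PER1 and KLF9 were not called without siNS Eth replicate 1 (-0.63 and -0.71) or 3 (-0.74 and -0.63), siNS Dex replicate 1 (-0.69 and -0.70) or 3 (-0.71 and -0.61), or siHP1g Eth replicate 2 (-0.70 and -0.63) or 3 (-0.75 and -0.69). SGK1 was not called without siNS Eth replicate 1 (-0.56) or 3 (-0.51), siNS Dex replicate 1 (-0.53) or 3 (-0.55) or siHP1g Eth replicate 2 (-0.50). FKBP5, at -0.44, had the same direction as these 4. In siNS cells the largest Dex responses of the list were those of TSC22D3 (3.64), KLF9 (2.82) and PER1 (2.54). That of DUSP1 was 1.51, and it was not the next largest. In siHP1g cells the largest were those of TSC22D3 (2.63), KLF9 (2.13) and MT2A (1.85), and in siPRMT5 cells those of TSC22D3 (3.24), KLF9 (3.12) and DUSP1 (2.73).

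Depletion also moved the listed targets within a treatment. With Dex, HP1γ depletion called 5 of the 10, each lower (24% of all genes), with the largest falls for SGK1 (-0.91), TSC22D3 (-0.82) and KLF9 (-0.76). With Eth it called 4 (31.8% of all genes), PER1 (0.54) and CEBPD (0.38) higher and DUSP1 (-0.60) and SGK1 (-0.36) lower. PRMT5 depletion called 8 with Dex, each higher (42.4% of all genes), with the largest rises for CEBPD (1.22), CRISPLD2 (1.03) and TSC22D3 (0.78). With Eth it called 5 higher and 2 lower (42.1% of all genes), with the largest rises for CRISPLD2 (1.29), TSC22D3 (1.18) and CEBPD (0.83). DUSP1 (-1.04) and ERRFI1 (-0.56) were lower. The rises of CRISPLD2 rest on 12 to 61 counts in a library. The call of CEBPD with HP1γ depletion and Eth was lost without siNS Eth replicate 1 (0.36) or 2 (0.33) or siHP1g Eth replicate 1 (0.32), and the other changes given here were called also without any 1 of the 18 libraries.

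**Figure D5:**
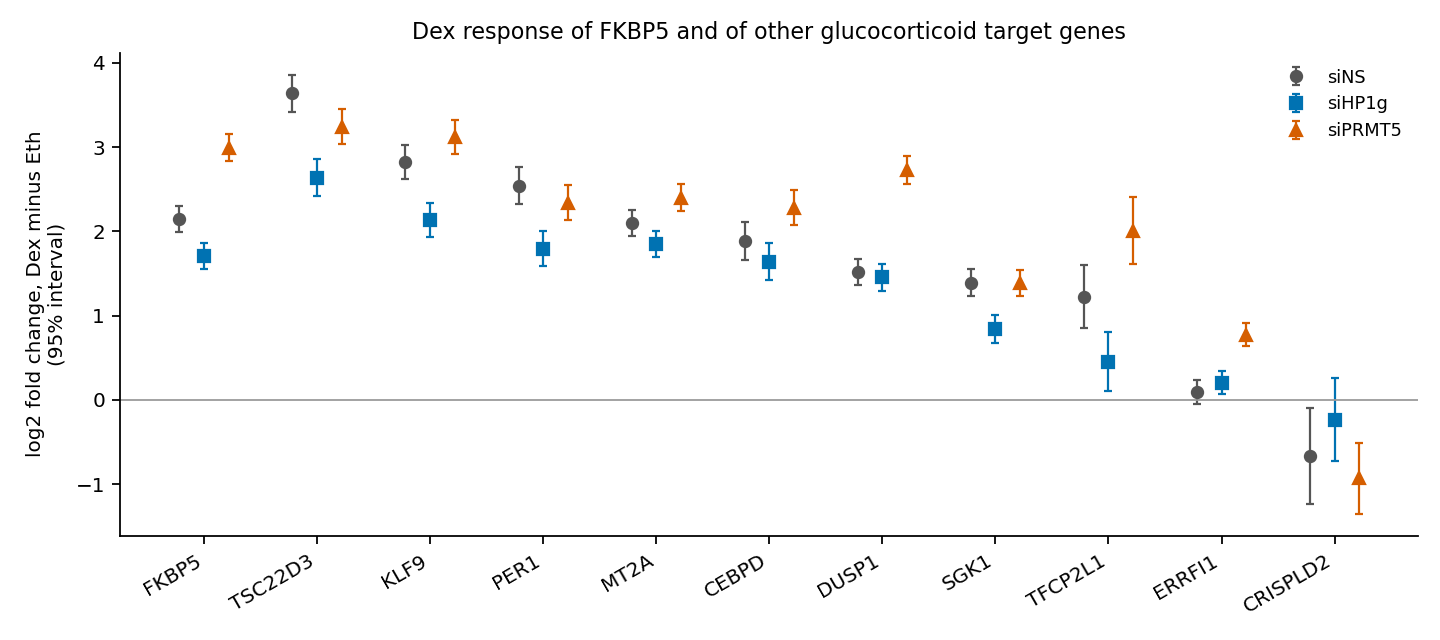
Log2 fold change with Dex and its 95% interval (y axis) for FKBP5 and the 10 tested genes of the target list (x axis, in the order of their response in siNS cells) with siNS, siHP1g and siPRMT5. The response of FKBP5 is 2.15, 1.71 and 2.99, and that of TSC22D3 is 3.64, 2.63 and 3.24.

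The wider chaperone system was read from 5 lists with 69 genes, of which 64 could be tested: other HSP90 co-chaperones (20 tested), the HSP70 system (16), organelle chaperones (6), heat shock factors and small heat shock proteins (6) and other immunophilins (16). The heat-inducible genes HSPA1A and HSPA1B and the immunophilin gene FKBPL, all on chromosome 6, had at most 1 count in a library and were not tested. CRYAB (at most 1 count) and FKBP2 (at most 7) were not tested either. Whether so few counts reflect the RNA of these genes or reads lost in mapping or counting was not tested. With Dex, 0 of the 64 were called in siNS cells, 0 in siHP1g cells and 1 in siPRMT5 cells by edgeR's test. Over all genes 2.71%, 1.67% and 5.44% were called. DESeq2 called 0 in siNS and 0 in siHP1g cells. An unadjusted p under 0.05 was found for 14 of the 64 in siNS and 11 in siHP1g cells. By p, PTGES3 ranked 2989 of the 15298 genes tested in siNS cells (unadjusted p = 0.0371) and 2559 in siHP1g cells (0.0429). At an adjusted p under 0.05 with no fold limit, 3 of the 64 were called in siNS cells, 0 in siHP1g cells and 10 in siPRMT5 cells, beside 9.16%, 5.55% and 16% of all genes. The gene called with the fold limit, DNAJB4, encodes a J-protein partner of HSP70 and was lower with Dex in siPRMT5 cells by -0.65. The change was -0.56 (adjusted p = 0.0037), below the 1.5-fold limit, without siPRMT5 Eth replicate 3. Its interaction was -0.68 (adjusted p = 0.018), a call lost without siNS Dex replicate 2 (-0.60), siPRMT5 Eth replicate 3 (-0.59) or siPRMT5 Dex replicate 1 (-0.64). For siHP1g minus siNS the HSP90 co-chaperone gene SUGT1 was called (0.58, adjusted p = 0.0473). Without siNS Eth replicate 1 or 3, any siNS Dex or siHP1g Eth replicate, siHP1g Dex replicate 1 or siPRMT5 Eth replicate 1 or 2 it was not, at 0.48 to 0.62. For the interactions edgeR called 1 of the 64 genes each (0.399% of all genes for siHP1g and 3.8% for siPRMT5), while DESeq2 called 3 for siHP1g and 4 for siPRMT5. Both shares are those of edgeR's test, and none is given for DESeq2. With library sizes left unscaled, 3 Dex responses in place of 1 were called in siPRMT5 cells, each lower.

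Depletion moved these genes in both directions. PRMT5 depletion with Dex raised 18 and lowered 23 of the 64 (64.1% called), and with Eth it raised 16 and lowered 23 (60.9%). HP1γ depletion raised 10 and lowered 11 with Dex and raised 8 and lowered 13 with Eth (32.8% each). Over all genes tested, PRMT5 depletion was called for 42.4% with Dex and 42.1% with Eth, and HP1γ depletion for 24% and 31.8%, so that the share of the list for HP1γ with Eth was near that of all genes. With library sizes left unscaled by TMM the HP1γ counts were 15 higher and 5 lower with Dex and 11 higher and 9 lower with Eth, so their balance depended on the scaling. By list, PRMT5 depletion with Dex called 10 higher and 5 lower of the other HSP90 co-chaperones, 1 and 7 of the HSP70 system, 0 and 3 of the organelle chaperones, 1 and 2 of the heat shock factor list and 6 and 6 of the other immunophilins. With Eth these were 7 and 3, 3 and 8, 0 and 5, 1 and 3, and 5 and 4.

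Over the 64 genes as 1 list, the 3 largest called rises and the 3 largest called falls of each depletion are named here. With PRMT5 depletion and Dex the HSP90 co-chaperone genes FNIP2 (0.79) and FNIP1 (0.61) and the cyclophilin gene PPIC (0.58) rose most. TOMM34, an adaptor between HSP70 and HSP90 (-1.43), DNAJB1, a J-protein partner of HSC70 (-1.17), and HSPA5, the HSP70 of the endoplasmic reticulum (-1.08), fell most. With PRMT5 depletion and Eth the rises were those of PPIC (0.76), the HSP90 co-chaperone gene TSC1 (0.76) and FNIP2 (0.70), and the falls those of TOMM34 (-1.30), the immunophilin gene FKBP3 (-1.26) and HSPA5 (-1.16).

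With HP1γ depletion and Dex the immunophilin gene FKBP14 (0.43), the HSP70 co-chaperone gene BAG2 (0.38) and the HSP90 co-chaperone gene CHORDC1 (0.34) rose most, and the mitochondrial chaperone genes HSPD1 (-0.54) and TRAP1 (-0.40) and the immunophilin gene FKBP9 (-0.37) fell most. With HP1γ depletion and Eth the rises were those of DNAJB2 (0.58), which encodes a J-protein, TSC1 (0.56) and the immunophilin gene FKBP15 (0.47), and the falls those of the cyclophilin gene PPIE (-0.71), HSPD1 (-0.66) and HSPE1 (-0.49), whose protein works with that of HSPD1. The call of CHORDC1 was lost without siHP1g Dex replicate 1 (0.14), any siNS Dex replicate, siNS Eth replicate 3 or siPRMT5 Eth replicate 1 or 2 (0.33 to 0.35 in these 6 cases). That of FKBP9 was lost without siNS Dex replicate 3 (-0.29) or siHP1g Dex replicate 3 (-0.34) and with library size in place of TMM (-0.29, adjusted p = 0.074). The other 22 of these 24 changes were called also without any 1 of the 18 libraries.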

How the data were processed

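RNA of 18 cultures of MDA-MB-231 cells, 3 for each of 6 groups, had been sequenced in single libraries. The deposited files give read counts per gene symbol, 1 file for each library. Mapping by the authors was to hg38 with Bowtie2 2.4.2, and counting was with HTSeq 0.9.1. The libraries were made with a Lexogen kit. Whether it covers whole transcripts or their 3′ ends, the strand setting and the annotation are not stated. The authors' table of comparisons (mean normalised counts, fold changes and p-values from DESeq2 2.11.40.7) was not used. Library totals ran from 8682992 to 12472381 counts. The spread between replicates exceeded counting error in each of the 18 pairs of libraries within a group. The totals alone therefore did not set the precision.

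Counts were scaled by TMM and tested with the quasi-likelihood F test of edgeR 4.0.16 (R 4.3.3, limma 3.58.1). The fit covered the 18 libraries with 1 mean per group and 12 residual degrees of freedom. The filter filterByExpr over the 6 groups kept 15298 of 60642 symbols, and p-values were adjusted over these by Benjamini and Hochberg. Dex responses were called at an adjusted p under 0.01 and 1.5-fold, depletions and interactions at an adjusted p under 0.05. Ratios of counts within a library were compared by exact permutation of 3 against 3. Standard errors are the log2 fold change divided by the square root of F. The steps were tested on simulated data.

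The alternatives were DESeq2 1.42.0, its size factors in edgeR, library size only, no filter, a filter of 10 counts in each library, a block for the replicate number, only the libraries compared, other thresholds, 10 counts added in ratios and each library left out in turn. Adding pseudogene counts to their genes was chosen after seeing the data.

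The 9 genes and the gene lists were chosen with earlier results of these data known. Genes named from a list were, in each comparison, up to 3 called genes with the largest rise and up to 3 with the largest fall, without the 9 genes and the siRNA targets. For the depletions the 5 chaperone and immunophilin lists were joined into 1 list for this rule, a choice made after the values were seen. The 5 genes with the highest Pearson correlation of log2 CPM (prior count 2, mean of at least 5 CPM) were named for NR3C1 and for FKBP5. Positions are from GENCODE 44 on hg38, and promoters from RefSeq on GRCh38.p14.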

Additional observations from a re-analysis of the deposited data

Results flagged for a closer look

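The response of FKBP5 to Dex differed between siPRMT5 and siNS cells by 0.84 on the log2 scale, with a standard error of 0.103 and an adjusted p of 2.31e-05 in edgeR's test of the interaction. It drew attention because the same treatment had effects of different size in the 2 kinds of cells. The response was 2.99 in siPRMT5 and 2.15 in siNS cells, with all 3 Dex libraries above all 3 Eth libraries in both. The difference was called without each of the 18 libraries in turn and under every other setting tried, where its adjusted p ran from 1.04e-12 to 0.000163. The cause was not tested.

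The Dex response also differed from that in siNS cells for other genes named above, by edgeR's test of the interaction. In siPRMT5 cells the difference was 1.22 for DUSP1, 0.68 for ERRFI1, 0.57 for the siRNA target PRMT5, -0.68 for DNAJB4 and -0.90 for COL1A1, a marker of other cells. In siHP1g cells it was -1.003 for TSC22D3, -0.75 for PER1, -0.69 for KLF9, -0.55 for SGK1 and 0.58 for SUGT1. DUSP1, ERRFI1 and TSC22D3 were called without each of the 18 libraries in turn. The other 7 lost their call without some of them, which are named above with the values. The cause was not tested for any of these genes.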

How the results depend on the processing

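Apart from leaving out libraries, 1381 values kept their direction and their side of the threshold, 55 fell short of it, 20 passed it newly and none reversed. With Dex responses at an adjusted p under 0.05 and no fold limit, 2 of the 9 genes were called in siNS cells (HSP90AA1 besides FKBP5) and 3 in siPRMT5 cells (STIP1 and HSPA8 besides FKBP5). In siPRMT5 cells the adjusted p over all settings ran from 0.00793 to 0.186 for STIP1 and from 0.000842 to 0.0617 for HSPA8. With depletions at an adjusted p under 0.01 and 1.5-fold, 2 were called for HP1γ with Dex (FKBP5 and PTGES3), 1 for HP1γ with Eth (PTGES3), 0 for PRMT5 with Dex and 0 for PRMT5 with Eth, where edgeR's main threshold and DESeq2 gave 7 and 7 with Dex and 6 and 5 with Eth. A stricter limit calls fewer genes by construction. For the Dex response of siHP1g minus siNS, where the main count was 0, DESeq2 called 2 (FKBP5 and HSP90AA1), edgeR with no filter called 2 (FKBP5 and PTGES3) and edgeR with the replicate block called 1 (FKBP5). Leaving out 1 library gave 0 to 1, and the cause was not tested. Leaving out 1 library also gave 6 to 7 genes for PRMT5 depletion with Dex, 4 to 7 with Eth and the same count as before in the other 6 comparisons. NR3C1 changed sign in 3 comparisons in which it was not called: its Dex response ran from -0.16 to 0.02858 in siHP1g and from -0.16 to 0.0084 in siPRMT5 cells, and HP1γ depletion with Dex from -0.0555 to 0.13. Uncalled Dex responses of STIP1 in siNS cells (-0.04385 to 0.06903) and of HSPA8 in siHP1g cells (-0.1026 to 0.03283) did so too. The cause was not tested. Ratios kept their direction in every setting. Adding pseudogene counts, chosen after seeing the data, left the number of genes called as it was in all 9 comparisons. Library size in place of TMM moved the median of all genes by at most 0.0815, to 0.0864 (HP1γ depletion with Dex). For a look at the replicate numbers, each gene's log2 CPM was taken as its deviation from the group mean. Deviations of same-numbered libraries in different groups correlated with a median of -0.0071 (-0.438 to 0.602). The correlation was above 0.1 in 13 of 45 pairs, among them siNS Eth and siHP1g Dex at all 3 numbers (0.602, 0.333 and 0.21). By the mean correlation with libraries of other groups at each number, 7 of 18 libraries had their own number highest. These values describe deviations within groups and not the likeness of whole libraries. Depth limited the precision most for NR3C2 and ESR2, with 5 to 34 counts.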
